A study of Homo sapiens with 14 samples.

Results

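The sites described are 334 positions in the RNA of HEK293T, a cell line from human embryonic kidney, read as A-to-G in at least 3 of 4 libraries of the RNA base editor REPAIR.t1 (Repair.t1 in the labels) and in none of the 4 libraries of the editor dCas13d-ADAR. They were chosen by these listings, so their presence in REPAIR.t1 lists and absence from dCas13d-ADAR lists are a description and were not tested. They are 334 of the 26172 distinct sites in the 14 lists of the series (1.28%), 334 of the 10648 sites in any REPAIR.t1 list (3.14%) and 334 of the 2334 sites in at least 3 REPAIR.t1 lists (14.3%). Of the 334, 79 were in all 4 REPAIR.t1 lists and 255 in exactly 3.

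Each list came from polyadenylated RNA of 1 library and gives a level per site, the fraction of reads with G. REPAIR.t1 was sampled with the EZH2_A22 and the NT guide, dCas13d-ADAR with the EZH2 and the NT guide, REPAIRv2 with the EZH2_A22 and the NT guide, and DECOR with the MALAT1 guide, with 2 libraries in each of the 7 groups. The labels spell out neither t1, NT nor A22 and give no way of delivery for the editors. They name no culture for a library either, so a p-value rests on a spread between libraries that could be purely technical. All groups are 1 cell line, all carry an editor, and the lists cannot show the line's marker genes, since they hold no expression. DECOR libraries were read for 62 and 160 cycles and all others for 25 and 97. REPAIR.t1 lists held 4356 to 4784 sites, dCas13d-ADAR lists 5730 to 5834, REPAIRv2 lists 46 to 101 and DECOR lists 5516 and 5855. Read depth is unknown, and for a position absent from a list, no editing, editing under the limit of the list and thin coverage cannot be told apart. In bulk RNA, fewer cells carrying the editor and less editing per cell cannot be told apart either. With no library lacking an editor, A-to-G reads from the cells' own enzymes or DNA cannot be told apart from the work of an editor.

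ADAR enzymes deaminate adenosine to inosine in double-stranded RNA, and sequencing reads inosine as guanosine. Many RNA base editors tether the deaminase domain to a catalytically inactive Cas13 protein, which a guide RNA brings to a chosen transcript. The deaminase can also act on transcripts that the guide does not match, and such sites are counted to judge how specific an editor is. The comparison below asks which listed sites came up again and again with 1 editor and never with the other. Whether any of them lies on a transcript that a guide matches was not analysed here. Positions are on hg19 as deposited, and their genes, strands and neighbouring bases were not analysed here.

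Most sites that REPAIR.t1 listed repeatedly were also listed for dCas13d-ADAR, and the 334 sites form the low end of a range. Of the 2334 sites in at least 3 REPAIR.t1 lists, 955 were in all 4 dCas13d-ADAR lists, 445 in 3, 325 in 2 and 275 in 1. The share that was in all 4 REPAIR.t1 lists was 23.7% among the 334 sites, close to the 24.0% of sites in 1 dCas13d-ADAR list. It was 36.9%, 40.2% and 63.8% for sites in 2, 3 and 4 dCas13d-ADAR lists. Sites in fewer REPAIR.t1 lists were more often absent from dCas13d-ADAR lists: 61.3% of those in 1 list, 35.0% in 2, 19.9% in 3 and 7.50% in 4. In the mirrored direction, 648 of the 3276 sites in at least 3 dCas13d-ADAR lists (19.8%) were in no REPAIR.t1 list.

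**Figure D1:**
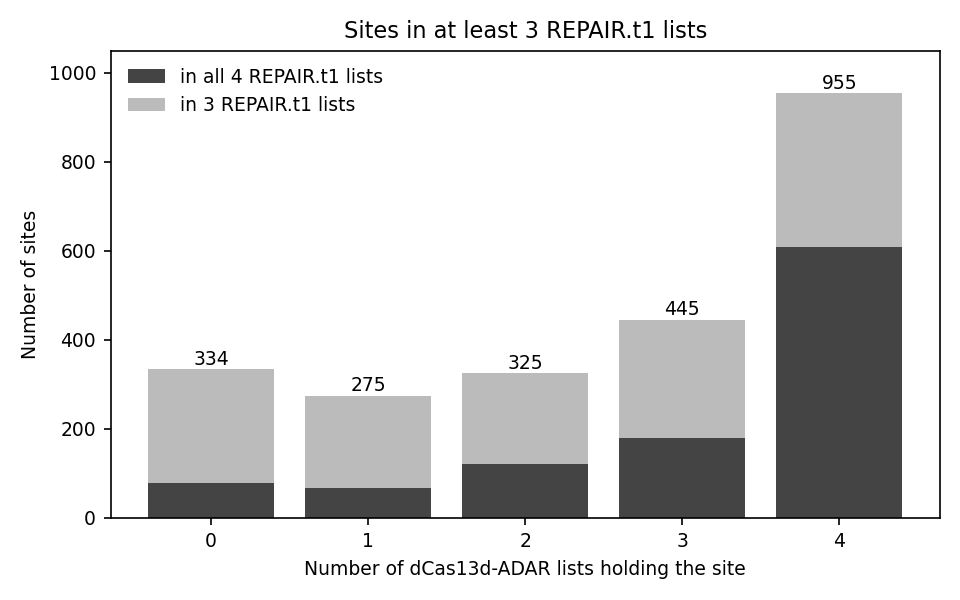
Number of sites in at least 3 REPAIR.t1 lists (vertical axis) by the number of dCas13d-ADAR lists that hold them (horizontal axis), with sites in all 4 REPAIR.t1 lists dark and sites in 3 light. The 334 sites described are the left bar, with 79 in all 4 REPAIR.t1 lists; the right bar holds 955 sites, 609 of them in all 4.

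The 334 sites had moderate editing levels, and almost none was highly edited. The mean level per site ran from 0.0950 to 0.586, with a median of 0.259 over the 334 sites, against 0.278 over the 2000 sites in at least 3 REPAIR.t1 lists and at least 1 dCas13d-ADAR list, called shared sites below. The EZH2_A22 libraries listed 274 and 273 of the 334 sites at median levels of 0.241 and 0.25, and the NT libraries 270 and 264 at 0.25 and 0.25. Shared sites had medians of 0.282 and 0.276 in the EZH2_A22 libraries and 0.270 and 0.267 in the NT libraries, above the median of the 334 sites in each of the 4 libraries. Levels of at least 0.5 made up 2.78% ± 0.374 of the values of the 334 sites per library (SD, n = 4 libraries), against 6.66% ± 0.620 of those of shared sites. A mean level of at least 0.5 was reached by 1 of the 334 sites (0.299%) and 61 of the 2000 shared sites (3.05%). A site with a low level is more easily missed by a list, so level is not independent of the rule and these differences were not tested.

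Among sites in all 4 REPAIR.t1 lists, absence from dCas13d-ADAR lists went with level as well. Among those in exactly 3, the median level hardly differed, at 0.262 for the 255 absent sites and 0.265 for all 1281. Of the sites in all 4 REPAIR.t1 lists, those with a mean level below 0.2 were absent from every dCas13d-ADAR list in 22 of 164 cases (13.4%). That share was 8.82% from 0.2 to 0.3, 5.68% from 0.3 to 0.4 and 3.01% from 0.4 to 0.5, and none of the 42 sites at 0.5 or above was absent. Among sites in all 4 REPAIR.t1 lists, the SD over libraries had a median of 0.0480 for the 79 absent sites and 0.0616 for 974 shared sites, and the SD relative to the mean was 0.212 and 0.204.

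The highest site in all 4 lists was position 135614083 on chromosome 7, at 0.333 and 0.533 with the EZH2_A22 guide and 0.433 and 0.417 with the NT guide (mean 0.429 ± 0.0821, SD, n = 4). Its nearest dCas13d-ADAR position lay 88 bases away, in 2 of the 4 lists. Next came a pair on chromosome X. Position 77082483 was at 0.526 and 0.35 with EZH2_A22 and 0.438 and 0.375 with NT, and position 77082480 at 0.5 and 0.455 with EZH2_A22 and 0.333 and 0.375 with NT. The guides overlapped at the first of these positions and not at the second, and a REPAIRv2 EZH2_A22 library also listed the second, at 0.24. A position 12 bases from the first, 77082495, was in all 4 REPAIR.t1 lists at a mean of 0.379 and in 1 dCas13d-ADAR list at 0.174.

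The next sites in order had SDs of 0.0998 and 0.146. Position 63526744 on chromosome 11 was at 0.5 and 0.474 with the EZH2_A22 guide and 0.3 and 0.333 with NT. Position 56067338 on chromosome 7 was at 0.368 and 0.25 with EZH2_A22 and 0.6 and 0.375 with NT. The guides did not overlap at either, with EZH2_A22 higher at the first and lower at the second. Such separation is common with 2 libraries against 2, where an exact permutation p cannot fall below 0.333. By itself it is no sign of a guide difference. The other 5 of the 10 highest sites were position 232018307 on chromosome 2 (mean 0.378), 20581671 on chromosome 18 (0.371), 82352384 on chromosome 5 (0.371), 39964068 on chromosome 2 (0.369) and 31661220 on chromosome 3 (0.362). Their order means little beside their spread: the means of the 10 sites span 0.362 to 0.429 and their SDs 0.0207 to 0.158.

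**Figure D2:**
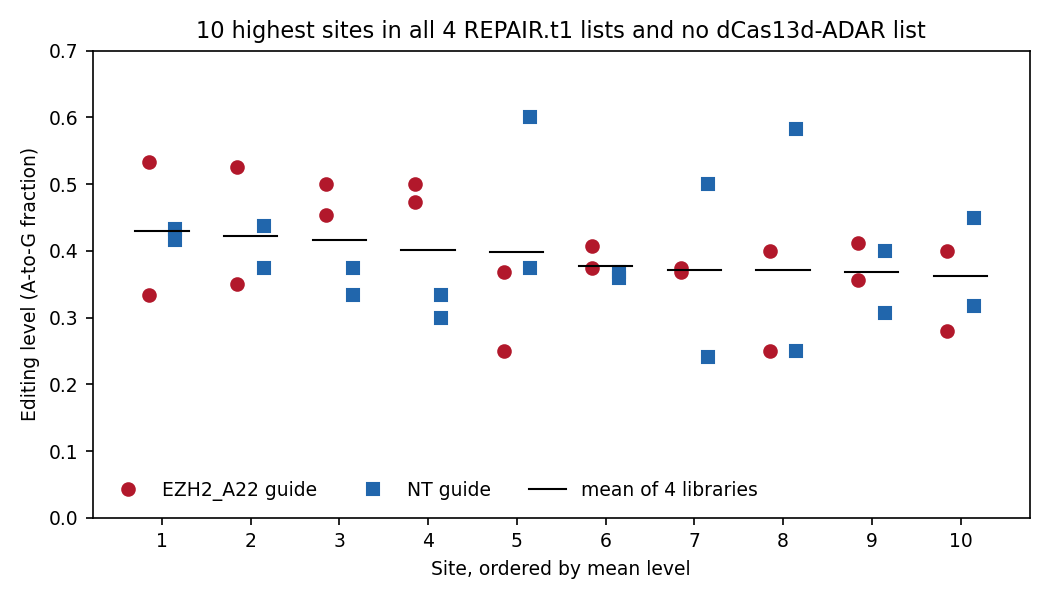
Editing level (A-to-G fraction, vertical axis) of the 10 highest of the 79 sites in all 4 REPAIR.t1 lists and no dCas13d-ADAR list, in order of mean level, with a point per library and the mean as a line. Means fall between 0.362 and 0.429, and the libraries of a site spread over more than the means of the sites do at 9 of the 10.

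The most and least variable sites show how wide this spread is. Position 82352384 on chromosome 5 had the largest SD, 0.158, with 0.4 and 0.25 under the EZH2_A22 guide and 0.583 and 0.25 under NT. Position 60644618 on chromosome 15 followed it among sites not yet named, with an SD of 0.125. Position 17624867 on chromosome 6 had the smallest, 0.00728, at 0.278 and 0.263 with EZH2_A22 and 0.263 and 0.273 with NT. The next smallest SDs were 0.0126 at position 231413372 on chromosome 1 and 0.0156 at position 73774177 on chromosome 17.

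Sites next to the limits of the rule had similar levels. The 255 sites in exactly 3 REPAIR.t1 lists had a median mean level of 0.262, led by position 35181749 on chromosome 14, at 0.727 in an EZH2_A22 library and 0.5 and 0.529 in the NT libraries (mean 0.586). Just outside, 776 sites in 2 REPAIR.t1 lists and no dCas13d-ADAR list had a median of 0.251, with position 120941810 on chromosome 12 the highest at 0.636. Another 275 sites missed the rule through 1 dCas13d-ADAR list, at a median REPAIR.t1 level of 0.258. Their highest, position 211918778 on chromosome 1, was at 0.543 in REPAIR.t1 and at 0.75 in the single dCas13d-ADAR list.

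When libraries that took no part in the choice were read, sites chosen in this way were listed more often for REPAIR.t1 than for dCas13d-ADAR, but not always. There were 491 sites in both NT libraries of REPAIR.t1 and neither NT library of dCas13d-ADAR. With the EZH2 guides, the REPAIR.t1 libraries listed 49.1% and 47.3% of them and the dCas13d-ADAR libraries 23.4% and 21.8%, a difference of 25.6 percentage points. Chosen the other way round, 515 sites that REPAIR.t1 listed in both EZH2_A22 libraries and dCas13d-ADAR in neither EZH2 library were found at 45.8% and 44.9% by the NT libraries of REPAIR.t1 and at 21.6% and 23.3% by those of dCas13d-ADAR, a difference of 22.9 points. Both REPAIR.t1 libraries lay above both dCas13d-ADAR libraries each time. The two-sided exact permutation p was 0.333 for each, the smallest that 2 libraries against 2 allow (adjusted 0.375 over 9 exact tests). With the choice made in 1 NT library of each editor and followed in the same-numbered EZH2 library of each, a looser choice without replicates, the difference was 8.74 points for replicate 1 and 8.09 for replicate 2. The 1501 sites in both NT libraries of REPAIR.t1 and at least 1 NT library of dCas13d-ADAR were listed at 74.4% on average in REPAIR.t1 and 77.6% in dCas13d-ADAR.

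Libraries were also left out 1 at a time. Of the 139 to 149 sites in 3 REPAIR.t1 lists and no dCas13d-ADAR list, the REPAIR.t1 library left out listed 53.0% to 56.8%, against 76.6% to 82.0% of the sites in 3 REPAIR.t1 lists and at least 1 dCas13d-ADAR list. Of the 391 to 413 sites in at least 3 REPAIR.t1 lists and none of 3 dCas13d-ADAR lists, the dCas13d-ADAR library left out listed 14.6% to 19.1%, at median levels of 0.214 to 0.25. Sites that were in at least 3 REPAIR.t1 lists and in any of the other 3 dCas13d-ADAR lists were found in the library left out at 74.7% to 75.4%.

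No difference in level between the guides of REPAIR.t1 was called at any of the 334 sites. Of the 2334 sites in at least 3 REPAIR.t1 lists, 0 differed between EZH2_A22 and NT at an adjusted p of 0.05 in limma (0% called), and 116 (4.97%) had an unadjusted p below 0.05. Among the 334 sites, 0 passed in limma and 15 (4.49%) had an unadjusted p below 0.05, near the share over all sites tested. The level was higher with EZH2_A22 at 163 of the 334 (48.8%, median difference -0.02 log2 odds) and at 53.9% of all sites tested (median 0.04). Where 1 library did not list a site, the fit dropped it. That left 1 residual degree of freedom for 1281 of the 2334 sites, and the prior degrees of freedom came to 2.03, which leaves the test little power. On simulated data the same fit called none of the added changes. Its count of 0 therefore does not show that levels were alike with the 2 guides. With the prior of the 1053 sites in all 4 lists (32.4 degrees of freedom, added after seeing the data), 0 of 2334 sites passed in limma, 0 of the 334 among them, with 116 and 11 at an unadjusted p below 0.05.

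The 3 sites with the smallest p had differences of 1 log2 unit or more and did not pass. Position 63526744 on chromosome 11, given above, was higher with EZH2_A22 (mean 0.487 against 0.317 with NT; log2 odds difference 1.01, SE 0.24, limma adjusted p = 0.843). Position 10582185 on chromosome 2 was at 0.25 and 0.211 with EZH2_A22 and 0.143 and 0.108 with NT (log2 odds difference 1.02, SE 0.29, limma adjusted p = 0.843). Position 119676852 on chromosome X was at 0.308 and 0.357 with EZH2_A22 and at 0.583 in the 1 NT library that listed it (log2 odds difference -1.46, SE 0.36, limma adjusted p = 0.843). The guides did not overlap at any of the 3, which were picked for small p. With so few libraries such separation is common and is no sign of a guide difference by itself.

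The surroundings of the 334 sites were listed less often for dCas13d-ADAR than the surroundings of shared sites, and the gap was smaller for REPAIR.t1 itself. A dCas13d-ADAR position lay within 1000 bases of 171 of the 334 sites (51.2%), against 1416 of the 2000 shared sites (70.8%), where the site itself was not counted. Within 50 bases the shares were 19.2% and 36.4%. The median distance was 816.5 bases for the 334 sites and 120 bases for shared sites. Another REPAIR.t1 position lay within 1000 bases of 68.6% of the 334 sites and 71.9% of shared sites, and within 50 bases of 34.7% and 36.7%. DECOR positions lay within 1000 bases of 55.1% and 62.8%. Sites on 1 transcript share their coverage and their choice, so these shares are a description and were not tested.

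**Figure D3:**
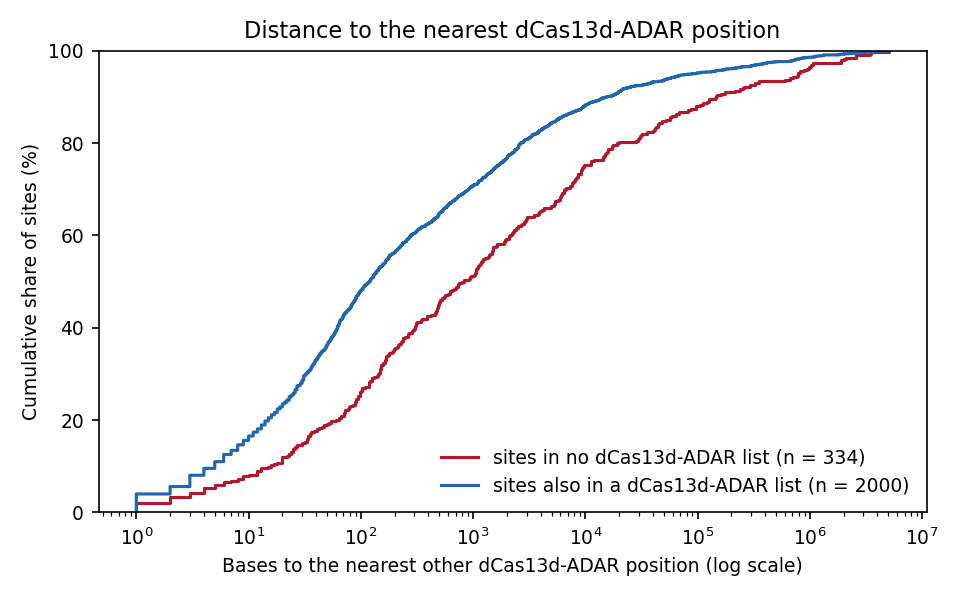
Cumulative share of sites (%, vertical axis) by the distance in bases to the nearest other dCas13d-ADAR position (log scale, horizontal axis), for the 334 sites in no dCas13d-ADAR list and the 2000 shared sites. The curve of the 334 sites runs below that of shared sites, with medians of 816.5 and 120 bases.

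At the near end, 27 of the 334 sites had a dCas13d-ADAR position within 10 bases, 7 of them on the next base. Position 150238126 on chromosome 1 was at 0.133 in an EZH2_A22 library and 0.154 and 0.154 in the NT libraries. The base before it, 150238125, was in all 8 lists, at a mean of 0.432 in REPAIR.t1 and 0.519 in dCas13d-ADAR. Position 103717874 on chromosome 4 was at 0.229 and 0.257 with EZH2_A22 and 0.344 and 0.409 with NT, and the next base, also in all 8 lists, at 0.611 in REPAIR.t1 and 0.555 in dCas13d-ADAR. At both places the dCas13d-ADAR libraries listed 1 base of the pair. Both bases were listed by all 4 REPAIR.t1 libraries on chromosome 4 and by 3 of the 4 on chromosome 1. The third, position 32875504 on chromosome 12, had a mean of 0.347, and the next base was in 1 dCas13d-ADAR list at 0.417. At the far end, position 89442860 on chromosome 4 (mean 0.279), 32329381 on chromosome 10 (0.392) and 105984167 on chromosome 2 (0.314) were the 3 of the 334 with the longest way to a dCas13d-ADAR position.

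Most of the 334 sites had no other of them nearby, and 51 (15.3%) had one within 1000 bases. Whether this is closer than scattered positions would lie was not tested. Within 50 bases of each other lay 24 of the 334 (7.19%), in 12 pairs and no larger group. Of the 12 pairs, 9 had no dCas13d-ADAR position within 50 bases. Only 64 of all 334 sites (19.2%) had one that near, so the pairs did not stand out. The 2 sites of a pair were adjacent bases in 3 cases. Positions 10582185 and 10582186 on chromosome 2 were both in all 4 REPAIR.t1 lists, the second at 0.195 and 0.162 with the EZH2_A22 guide and 0.128 and 0.108 with NT, below or equal to the first in each library. On chromosome 6, positions 166733684 and 166733685 averaged 0.206 and 0.196, and on chromosome 9, positions 131458327 and 131458328 averaged 0.194 and 0.156. On chromosome 13, positions 28009719 and 28009723 both averaged 0.248 and were both missing from the same library. Neighbouring bases are read from the same fragments and are not independent.

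The rule did not read the levels of sites that both editors listed in every library. Of these 609 sites, 48 lay within 1000 bases of 1 of the 334 sites, in 40 separate regions of which 33 held a single one. Near the 334 sites the order of the editors differed between guides. The mean level per library was 0.416 and 0.409 (EZH2_A22) and 0.369 and 0.376 (NT) for REPAIR.t1, against 0.388 and 0.356 (EZH2) and 0.397 and 0.382 (NT) for dCas13d-ADAR, and the editors overlapped over all 8 libraries. Within a guide they did not overlap, with REPAIR.t1 higher by 0.0406 in the EZH2 libraries and a difference of -0.0173 in the NT libraries. The means over both guides were 0.392 ± 0.0234 and 0.381 ± 0.0177 (SD, n = 4 libraries each), and the difference of 0.0116 did not pass a two-sided exact permutation test (p = 0.457, adjusted 0.457); it turned to -0.0120 within 10000 bases.

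At the other 561 sites REPAIR.t1 was lower, at 0.314 against 0.369 for dCas13d-ADAR, a difference of -0.0548. The difference between editors was thus 0.0664 higher near the 334 sites than elsewhere, with an exact permutation p of 0.0286 (two-sided, 4 libraries against 4), the lowest that 70 arrangements allow. After adjustment over 9 tests it was 0.0643, which does not pass. It was 0.0642 with each region weighted once. Nearby sites can share reads and coverage with the 334 sites, so their levels are not fully independent of the choice. REPAIR.t1 was higher at 27 of the 48 nearby sites (56.3%) and at 22.6% of the others. Near the 648 mirrored sites the difference between editors was -0.0692 over 100 sites, 0.0234 below that at the remaining sites in all 8 lists (difference -0.0234, exact permutation p = 0.0857, adjusted 0.129). Sites near mirrored ones were not left out of the 561 others, so the 0.0664 is set in part against them.

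Of the nearby sites, the largest gap in favour of REPAIR.t1 was at position 125453683 on chromosome 11, at 0.440 ± 0.127 in REPAIR.t1 and 0.233 ± 0.0417 in dCas13d-ADAR (SD, n = 4 each), 68 bases from the nearest of the 334 sites. Position 115273010 on chromosome 1 was at 0.619 ± 0.0268 in REPAIR.t1 and 0.474 ± 0.0314 in dCas13d-ADAR. The opposite case, position 46190409 on chromosome 21, was at 0.392 ± 0.0880 in REPAIR.t1 and 0.642 ± 0.0395 in dCas13d-ADAR. These 3 were chosen after their values were seen.

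**Figure D4:**
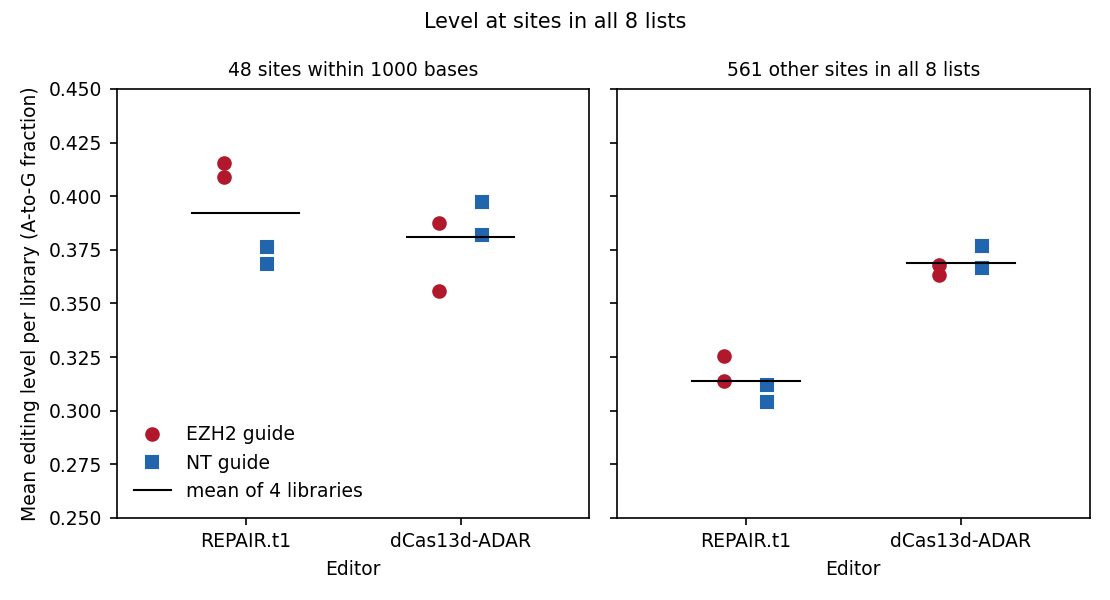
Mean editing level per library (A-to-G fraction, vertical axis, which starts at 0.25) over the 48 sites in all 8 lists within 1000 bases of the 334 sites (left panel) and over the 561 other sites in all 8 lists (right panel), with a point per library and lines at the means of 4. On the left REPAIR.t1 is above dCas13d-ADAR with the EZH2 guides and below it with NT, and the editors separate on the right, at 0.314 and 0.369.

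The 334 sites were unevenly spread over the chromosomes. Chromosome 19, known for its density of genes, held 11 of them, and they were 5.07% of its 217 sites in at least 3 REPAIR.t1 lists, against 14.3% over all chromosomes. The share was also low on chromosomes 20 (6.06%), 22 (6.59%), 17 (8.78%) and 16 (9.71%). It was high on chromosome 2 (35 of 146 sites, 24.0%), chromosome 4 (23.3%), chromosome 3 (22.4%) and chromosome X (20%), and highest on chromosomes 18 (6 of 15, 40%) and 13 (4 of 14, 28.6%), which are poor in genes. The mirrored sites ran the other way, with 16.7% of the 648 on chromosome 19 and 2.47% on chromosome 2, where the 334 sites had 3.29% and 10.5%.

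**Figure D5:**
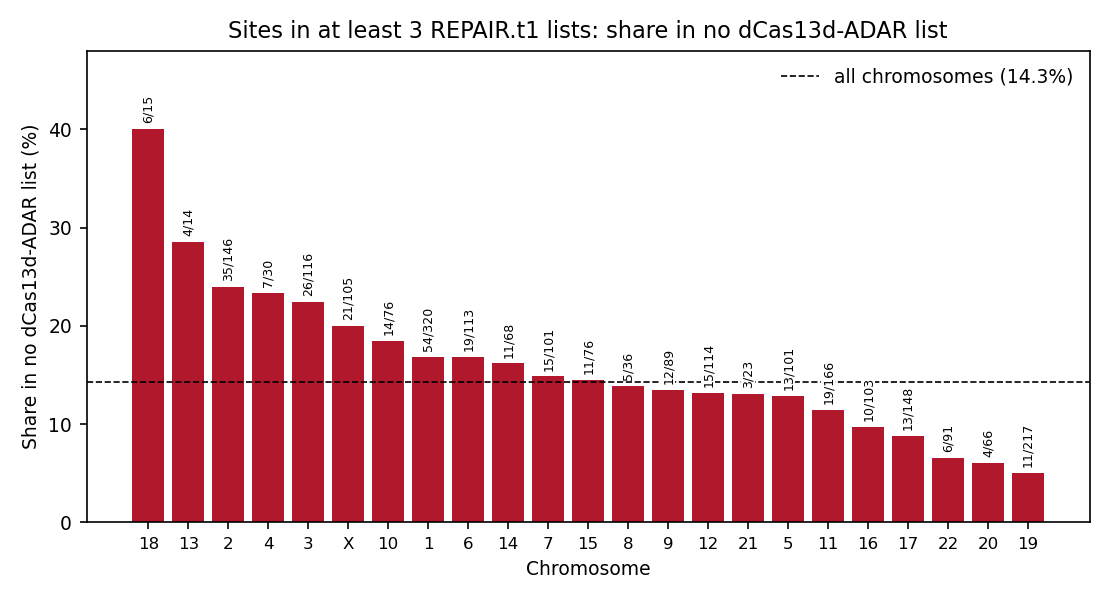
Share of the sites in at least 3 REPAIR.t1 lists that were in no dCas13d-ADAR list (%, vertical axis) per chromosome, in falling order, with the counts over each bar and the share over all chromosomes as a dashed line. Chromosome 18 has 40% of 15 sites and chromosome 19 has 5.07% of 217.

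Measures that leave out the 334 sites were set side by side for both editors on the same chromosomes. Chromosomes 19 and 2 were picked after these counts were seen, as large ones with a low and a high share. With the 334 and the mirrored sites left out, chromosome 19 held 8.69% ± 0.475 of a REPAIR.t1 list and 12.3% ± 0.316 of a dCas13d-ADAR list (SD, n = 4 libraries each; 8.11% to 9.27% and 11.9% to 12.7%). Chromosome 2 held 5.57% ± 0.230 and 4.65% ± 0.245. For each difference the exact permutation p (two-sided) was 0.0286, the lowest possible, and 0.0643 after adjustment, which does not pass. These shares again count listing in the 8 libraries by which the chromosomes were picked. Sites that narrowly missed the rule, such as 776 in 2 REPAIR.t1 lists and no dCas13d-ADAR list, remain in them. The shares are therefore not separate evidence. At the 79 sites of chromosome 19 in all 8 lists, the mean level was 0.290 ± 0.0126 in REPAIR.t1 and 0.366 ± 0.00879 in dCas13d-ADAR. Relative to the other chromosomes, this was a level of -0.0350 in REPAIR.t1 and -0.00386 in dCas13d-ADAR, a difference of -0.0312 (exact permutation p = 0.0286, adjusted 0.0643). At the 29 such sites of chromosome 2 the same difference was 0.0219 (exact permutation p = 0.0857, adjusted 0.129). Level bears on listing, and these p-values take no account of how the chromosomes were picked. The levels are therefore not separate evidence either. Whether coverage or base composition moves with these differences was not tested.

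Few of the 334 sites were in the lists of the remaining editors, which the rule did not use. REPAIRv2, whose lists are short, listed 3 of the 334 (0.898%), against 142 of the 2000 shared sites (7.10%). DECOR listed 6 (1.80%), against 69 shared sites (3.45%), and none of the 334 was in lists of both, against 11 shared sites. Among the mirrored sites REPAIRv2 listed 0.309% and DECOR 3.09%. Read the other way, the 334 sites were 2.17% and 0% of the REPAIRv2 NT lists and 1.15% and 0.990% of the REPAIRv2 EZH2_A22 lists. These values lie around their 1.28% of all sites in the series, so no shortage in REPAIRv2 lists is read from them. Of the DECOR lists the 334 sites were 0.0725% and 0.0683%. The share in REPAIRv2 lists was 1.09%, 2.77%, 5.39% and 11.1% for sites in 1, 2, 3 and 4 dCas13d-ADAR lists. The share in DECOR lists was 0%, 1.54%, 4.27% and 4.71% for the same sites. These counts are small. The 6 of the 334 sites stand beside 0 of 275 sites in 1 dCas13d-ADAR list and 5 of 325 in 2, so no order is read from them. Sites are not replicates, so these shares were not tested.

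Both DECOR libraries listed 2 of the 334 sites. Position 133136315 on chromosome 6 was at 0.286 and 0.5 with REPAIR.t1 and EZH2_A22, 0.235 and 0.294 with REPAIR.t1 and NT, and 0.4 and 0.333 with DECOR. Position 198354965 on chromosome 2 was at 0.170 and 0.178 with EZH2_A22, at 0.169 in 1 NT library and at 0.154 and 0.211 with DECOR, so levels of the 2 editors overlapped at both. A single DECOR library listed position 126379029 on chromosome 8 (mean 0.338 in REPAIR.t1), 2658888 on chromosome X (0.234), 76220383 on chromosome 17 (0.218) and 84650829 on chromosome 2 (0.211). Besides the site on chromosome X given above, a single REPAIRv2 library listed position 73989853 on chromosome 2, at 0.25, where the REPAIR.t1 libraries had 0.417, 0.333 and 0.4, and position 98943232 on chromosome 12, at 0.3, within the 0.263 to 0.333 of the 3 REPAIR.t1 libraries.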

How the data were processed

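Each library has a list, deposited by the authors, of sites with chromosome, position and an A-to-G rate; per the file headers this rate is a fraction, taken here as the level of editing. The submitters' processing notes list cutadapt, STAR 2.6.1b, hg19 and GRCh37. How sites were called, with what thresholds and coverage, on which strand, and whether positions count from 0 or 1, are points not given in the sources used here. The lowest deposited fraction was 0.0597. The lists hold no read counts, so depth is unknown and no counting interval is given.

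Sites were matched by chromosome and position, and groups were taken from the titles. The sites, lists and tests were chosen with earlier results of these data known. Levels of the EZH2_A22 and NT libraries of REPAIR.t1 were compared in limma 3.58.1 as log2 odds (level and complement each raised by 0.01) over all sites in at least 3 REPAIR.t1 lists, dropping missing values and calling sites at an adjusted p of 0.05. Read counts, had the files held them, would have been tested instead. The fit was tested on simulated data, where it called none of the added changes; a fit with the prior spread of sites in all 4 lists, added after this was seen, called most of the larger ones. Exact permutation tests (two-sided) compared values per library, adjusted over the 9 printed ones (Benjamini-Hochberg). Alternatives were minimum levels, numbers of lists, windows, scales, left-out libraries, single guides and a replicate block.

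Sites named are those with the highest mean level, in REPAIRv2 or DECOR lists, with the smallest guide p, the largest and smallest spread, farthest from and nearest to dCas13d-ADAR positions, in pairs within 50 bases, or next to the limits of the rule; the other sites named were chosen after their values were seen. Genes, transcript regions and sequences were not analysed here, since no genome of this build was used. Calculations used Python 3.11.15, numpy 2.4.6, pandas 2.3.3, scipy 1.17.1 and R 4.3.3, and figures matplotlib 3.10.9.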

Additional observations from a re-analysis of the deposited data

Results flagged for a closer look

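The median level of the 334 sites was 0.241 in EZH2_A22 replicate 1 of REPAIR.t1, against 0.25 in each of the other 3 REPAIR.t1 libraries, so that 1 library stood apart from 3 tied values. Such a check marks about 1 in 20 groups of 4 by chance, and 22 values were checked. With the other 3 medians tied, any departure would have stood apart, so that rate may not apply here.

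At the 48 sites in all 8 lists within 1000 bases of the 334 sites, REPAIR.t1 minus dCas13d-ADAR was 0.0406 in the EZH2 libraries and -0.0173 in the NT libraries. Both REPAIR.t1 libraries lay above both dCas13d-ADAR libraries with the EZH2 guides and below them with NT, and this difference between guides was not tested.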

How the results depend on the processing

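Without a count or coverage behind a level, depth limits every statement on absence from a list. The number of sites was 79 with all 4 REPAIR.t1 lists required and 1110 with at least 2, 139 to 149 without any 1 REPAIR.t1 library and 391 to 413 without any 1 dCas13d-ADAR library. It was 250 with levels of at least 0.2, and 270 where a dCas13d-ADAR position within 50 bases counted as a listing. With all 4 lists required, each library holds all 79 by construction. The median level per library was 0.243 with all 4 lists required and 0.289 with levels of at least 0.2. A dCas13d-ADAR position was within 50, 100 and 10000 bases of 19.2%, 26.3% and 75.1% of the 334 sites. In at least 2 lists of the editor, REPAIRv2 held 0% and DECOR 0.599%. With the replicate number as a block, 1 of 2334 sites passed in limma between guides, and 0 of the 334; same-numbered libraries were hardly correlated (r = 0.0486 over 1053 sites), so the numbers were not taken as pairs. The followed share, with the replicate number as a block, differed by 8.74 and 8.09 points in replicates 1 and 2, with no test since each arm is 1 library.

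The difference between editors near the 334 sites turned to -0.0120 within 10000 bases and to -0.0173 with NT libraries alone, against 0.0406 with EZH2 libraries alone (0.00335 to 0.0196 with 1 library left out). Less that at other sites, it was 0.0864 with EZH2 and 0.0464 with NT libraries alone, 0.0664 with the replicate block (exact permutation p = 0.125, the smallest possible there) and 0.0583 to 0.0738 with 1 library left out. A comparison within 1 guide cannot reach an exact permutation p under 0.333. The settings for chromosomes were chosen after seeing the data. For chromosome 19 the share of the list differed by -3.46 and -3.82 points with EZH2 and NT libraries alone, -3.64 with the replicate block and -3.83 to -3.45 with 1 library left out, and the relative level by -0.0257, -0.0367, -0.0312 and -0.0341 to -0.0267. For chromosome 2 the share differed by 0.627, 1.22, 0.925 and 0.849 to 1.03 points, and the relative level by 0.0151 to 0.0277 with 1 library left out; without dCas13d-ADAR NT replicate 2 it was 0.0277 (exact permutation p = 0.0286). The causes were not tested. In all, 99 values, some of them given above, kept their direction and side of the threshold or, for counts and untested values, changed by a modest amount. For the number of sites, such values ran from 250 to 413, against 334.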
